A study of Homo sapiens with 4 samples.

Results

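The miR-17-92 and miR-106b-25 clusters were examined in miRNA sequencing (miR-seq) of U-251, an established human glioma cell line. Members were the table's names for the hairpins of these clusters, together with miR-92a-2, the copy of miR-92a in the related miR-106a-363 cluster. The rule found 9 of the 746 miRNA names. Of these, 6 belong to miR-17-92 (miR-17-5p, miR-18a-5p, miR-19a-5p, miR-20a-5p, miR-19b-1-5p and miR-92a-1-5p), 2 belong to miR-106b-25 (miR-106b-5p and miR-93-5p) and 1 is miR-92a-2-5p. miR-25, the other member of miR-106b-25, is not analysed here. The data comprised 4 libraries of wild-type cells, described as biological replicates of 1 group that received the vehicle DMSO, whereas the paper's text describes basal conditions and names no vehicle. No comparison between conditions was therefore possible, and members were compared with each other within each library. Total counts per library lay between 12363104 and 13214969. Levels are given as CPM, the counts scaled to a common total of all miRNA counts of a library, and shares as percent of that total. The mature members are of like length, so no correction for length was made.

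Each cluster is made as 1 long primary transcript, from which Drosha cuts the hairpins and Dicer the mature strands. The miR-17-92 transcript, known as oncomiR-1, is activated by MYC and E2F factors and is amplified in some lymphomas. The miR-106b-25 hairpins lie inside the gene of MCM7, a subunit of the replicative helicase, and are transcribed with it. The miR-17 seed family represses inhibitors of the cell cycle such as CDKN1A, and the miR-25/92 family represses the pro-apoptotic BCL2L11.

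In the GENCODE annotation of GRCh38, the build that the authors call hg38, the 6 hairpins of miR-17-92 lie on the plus strand of chromosome 13 (chr13:91350605-91351391), a stretch of 787 bases in the non-coding host gene MIR17HG. They are exonic in 3 MIR17HG transcripts and intronic in 8. The 3 hairpins of miR-106b-25 lie on the minus strand of chromosome 7 (chr7:100093560-100094074), within 515 bases. MIR106B and MIR25 are each intronic in the 9 MCM7 transcripts that span them. MIR93 is intronic in 8 of the transcripts that span it and overlaps the edge of an exon in 1. The 6 hairpins of miR-106a-363 lie on the minus strand of chromosome X (chrX:134169378-134170278).

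The mature sequences are shown because the members fall into families by their seed, bases 2 to 8 counted from the 5′ end, which sets the targets. They are RefSeq sequences on GRCh38.p14, with the seed in capitals. The 5p strands of miR-17, miR-20a, miR-93, miR-106b and the chromosome X members miR-20b and miR-106a have the same seed. The seed of miR-18a-5p differs from it.
miR-17-5p: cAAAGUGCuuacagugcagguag
miR-20a-5p: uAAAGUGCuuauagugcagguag
miR-93-5p: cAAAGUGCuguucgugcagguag
miR-106b-5p: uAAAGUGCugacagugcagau
miR-20b-5p: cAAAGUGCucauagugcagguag
miR-106a-5p: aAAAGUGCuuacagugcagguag
miR-18a-5p: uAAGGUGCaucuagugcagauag

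Positions are counted from 1 at the 5′ end, with the base of the first-named miRNA written first. miR-20a-5p differs from miR-17-5p by C1U and C12U, miR-93-5p differs by U10G, A11U, C12U and A13C, and miR-106b-5p differs by C1U, U10G and G20A over its length. miR-106a-5p differs from miR-17-5p by C1A only. Reads of these names can therefore be told apart by only a few bases.

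For miR-19a, miR-19b and miR-92a the 3p strand is the usual guide, the strand that enters AGO2. The table lists none of the 9 members under a 3p name. It holds 18 names of the 3p arm and 538 of the 5p arm in all. The strands of both arms are given, since the arm behind each count is not stated.
miR-19a-3p: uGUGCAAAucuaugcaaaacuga
miR-19b-3p: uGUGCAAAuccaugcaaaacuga
miR-92a-3p: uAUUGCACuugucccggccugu
miR-19a-5p: aGUUUUGCauaguugcacuaca
miR-19b-1-5p: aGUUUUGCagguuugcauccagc
miR-92a-1-5p: aGGUUGGGaucgguugcaaugcu
miR-92a-2-5p: gGGUGGGGauuuguugcauuac

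Of the 9 members, 8 reached 10 counts in each of the 4 libraries, against 37.5% of all 746 names. The exception was miR-18a-5p. The 9 members together held 3.47% ± 0.403 (SD, n = 4) of all miRNA counts. Whether some reads are counted under both miR-92a-1-5p and miR-92a-2-5p was not tested, and without miR-92a-2-5p the members held 2.62% ± 0.265 (SD, n = 4). Their levels spanned from miR-93-5p, the 12th name by summed count, to miR-18a-5p, the 212th.

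miR-93-5p, of the miR-17 seed family, was the most abundant member. It had 170708, 227594, 184945 and 190661 counts in replicates 1 to 4, which is 15187 ± 1498 CPM (SD, n = 4), and ranked between 12 and 14 among all names. The libraries were close to each other, with a highest CPM 1.27 times the lowest. miR-106b-5p, with the same seed and from the same transcript, had 5773, 8891, 8686 and 6997 counts, or 596.1 ± 112.4 CPM (SD, n = 4). It thus lay far below miR-93-5p in 4 of 4 libraries.

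In miR-17-92, the name with the highest level was miR-92a-1-5p. It had 85125 counts in replicate 1 and 132315, 127572 and 116503 counts in replicates 2, 3 and 4, or 9064 ± 1599 CPM (SD, n = 4). Replicate 1 was the lowest. miR-20a-5p, of the miR-17 seed family, had 16044, 11474, 8922 and 8284 counts, or 879.7 ± 281.4 CPM (SD, n = 4), and here replicate 1 was the highest. miR-17-5p, the first member of the cluster, had 2977, 3003, 2869 and 2791 counts, or 228.9 ± 7.83 CPM (SD, n = 4). Its coefficient of variation, 3.42%, was the lowest of the members, against a median of 20.1% over the 280 names with at least 10 counts in every library.

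Of the members with a value in every library, the miR-19 names varied most. miR-19b-1-5p had 5262 counts in replicate 1 and 2275, 1909 and 1937 in the others, or 224.5 ± 130.3 CPM (SD, n = 4). miR-19a-5p had 842 counts in replicate 1 and 203, 218 and 229 in the others, or 29.5 ± 25.1 CPM (SD, n = 4). Without replicate 1, the mean of miR-19a-5p was 16.99 CPM and that of miR-19b-1-5p was 159.5 CPM. Counting error is small beside this gap, since the 95% Wilson interval of miR-19a-5p was 62.7 to 71.8 CPM in replicate 1 and 13.4 to 17.6 CPM in replicate 2. Such intervals cover counting error only.

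miR-18a-5p, whose seed differs from that of miR-17 and which lies just after MIR17 in the transcript, had a value in replicate 4 only. This was 666 counts, or 52.2 CPM (95% Wilson interval 48.4 to 56.4 CPM). The cells of replicates 1, 2 and 3 were blank. With these read as 0 counts and a floor of 3 counts set for each, the level in replicate 4 was 215.3-fold or more above the floor. That floor lies below the 95% Wilson upper limits of these cells, 0.291 to 0.311 CPM. A blank is not shown to be an absence, since 15 of the 166 names that reached 666 counts in 1 library were blank in another. In replicate 4, miR-17-5p had 4.19 times the counts of miR-18a-5p.

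**Figure D1:**
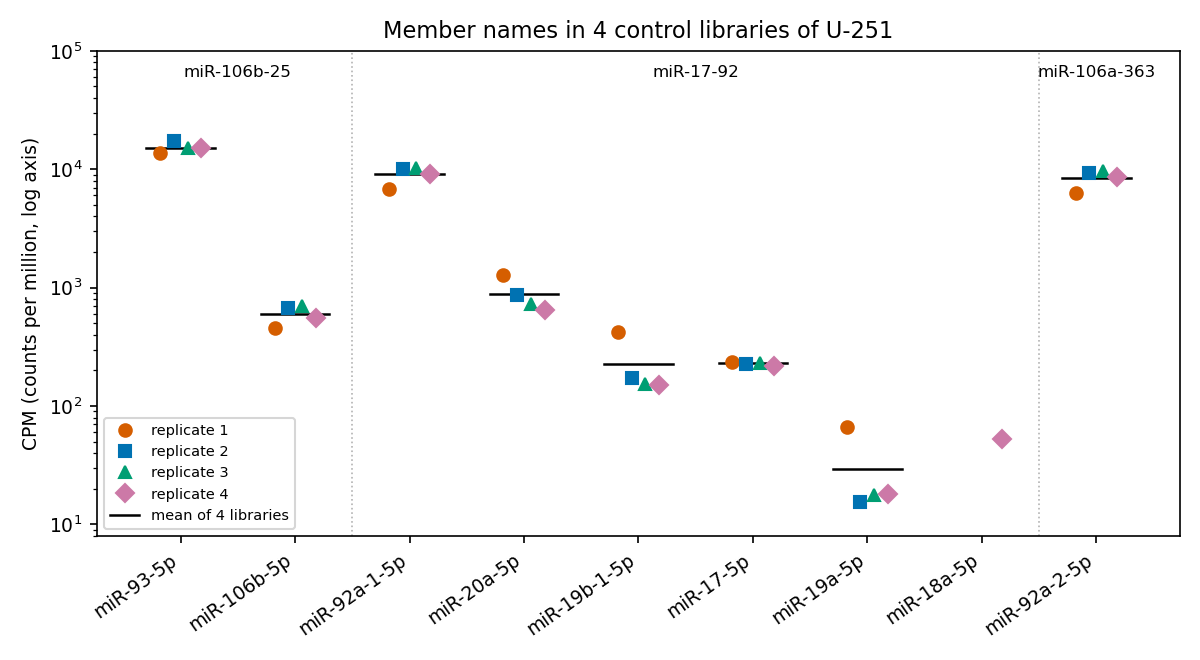
Level of each member name in CPM on a log axis, with 1 point for each of the 4 libraries and a line at their mean. miR-93-5p is the highest, with points between 13610 and 17222 CPM, and for miR-19a-5p replicate 1, at 67.1 CPM, stands above the other libraries; miR-18a-5p has a point for replicate 4 only and no line, because the other cells are blank.

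Ordered by summed count, the members read miR-93-5p, miR-92a-1-5p, miR-92a-2-5p, miR-20a-5p, miR-106b-5p, miR-17-5p, miR-19b-1-5p, miR-19a-5p and miR-18a-5p. Of the 8 pairs of neighbours, 6 had the same order in every library. The same held for 3.94% of neighbours over all 280 names with at least 10 counts in every library, which lie closer to each other in level than the members do. miR-93-5p exceeded miR-92a-1-5p in 4 of 4 libraries, by 0.76 ± 0.19 on the log2 scale (SD, n = 4). The log2 ratio of miR-20a-5p to miR-106b-5p averaged 0.53 ± 0.64 (SD, n = 4) and that of miR-17-5p to miR-19b-1-5p averaged 0.17 ± 0.67 (SD, n = 4), so in neither pair was the difference larger than the spread between libraries. In replicate 1 miR-19b-1-5p lay above miR-17-5p, and in replicate 4 miR-18a-5p lay above miR-19a-5p.

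The names of hairpins of 1 transcript thus had very unequal counts. miR-93-5p made up 96.2% ± 0.521 (SD, n = 4) of the analysed miR-106b-25 counts, and miR-106b-5p the remaining 3.76% ± 0.521 (SD, n = 4). The log2 ratio of miR-106b-5p to miR-93-5p averaged -4.69 ± 0.20 (SD, n = 4), with p = 0.125 when signs were flipped over all libraries in an exact two-sided permutation. This p-value is the smallest that 4 libraries allow, so no pair of members can pass 0.05. In miR-17-92, miR-92a-1-5p made up 86.3% ± 6.12 (SD, n = 4), miR-20a-5p 8.72% ± 3.94 (SD, n = 4), miR-19b-1-5p 2.28% ± 1.66 (SD, n = 4), miR-17-5p 2.22% ± 0.325 (SD, n = 4) and miR-19a-5p 0.307% ± 0.305 (SD, n = 4). Whether the counts of miR-92a-1-5p and miR-19b-1-5p include reads from their chromosome X copies was not tested, so these shares belong to names. Replicate 1 carried the shares of the miR-19 names. Without it, miR-19b-1-5p made up 1.45% ± 0.0918 (SD, n = 3) and miR-19a-5p 0.155% ± 0.0198 (SD, n = 3).

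miR-17-5p and miR-20a-5p have the same seed and differ by a pair of bases. The ratio of miR-17-5p to miR-20a-5p was 0.186, 0.262, 0.322 and 0.337 in replicates 1 to 4, or -1.89 ± 0.39 on the log2 scale (SD, n = 4, exact permutation p = 0.125). miR-20a-5p was the higher in 4 of 4 libraries. For the miR-19 names, the ratio of miR-19a-5p to miR-19b-1-5p was 0.160, 0.0892, 0.114 and 0.118, or -3.08 ± 0.34 on the log2 scale (SD, n = 4, exact permutation p = 0.125). miR-19b-1-5p was the higher in 4 of 4 libraries.

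The level did not follow the place in the transcript in one direction. From the 5′ end of miR-17-92, mean levels were 228.9 CPM for miR-17-5p, 29.5 CPM for miR-19a-5p, 879.7 CPM for miR-20a-5p, 224.5 CPM for miR-19b-1-5p and 9064 CPM for miR-92a-1-5p, with miR-18a-5p left out for its blanks. MIR92A1 is the last hairpin, 709 bases after the start of MIR17. In the miR-106a-363 cluster, miR-106a-5p, the first, had the lowest level of the analysed names, with 177, 112 and 86 counts in replicates 1 to 3 and a blank in replicate 4. miR-92a-2-5p had the highest, 8437 ± 1485 CPM (SD, n = 4), followed by miR-20b-5p with 2216 ± 645.3 CPM, miR-363-5p with 486.8 ± 142.1 CPM and miR-19b-2-5p with 226.0 ± 130.5 CPM (SD, n = 4 for each). miR-18b is not analysed here.

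**Figure D2:**
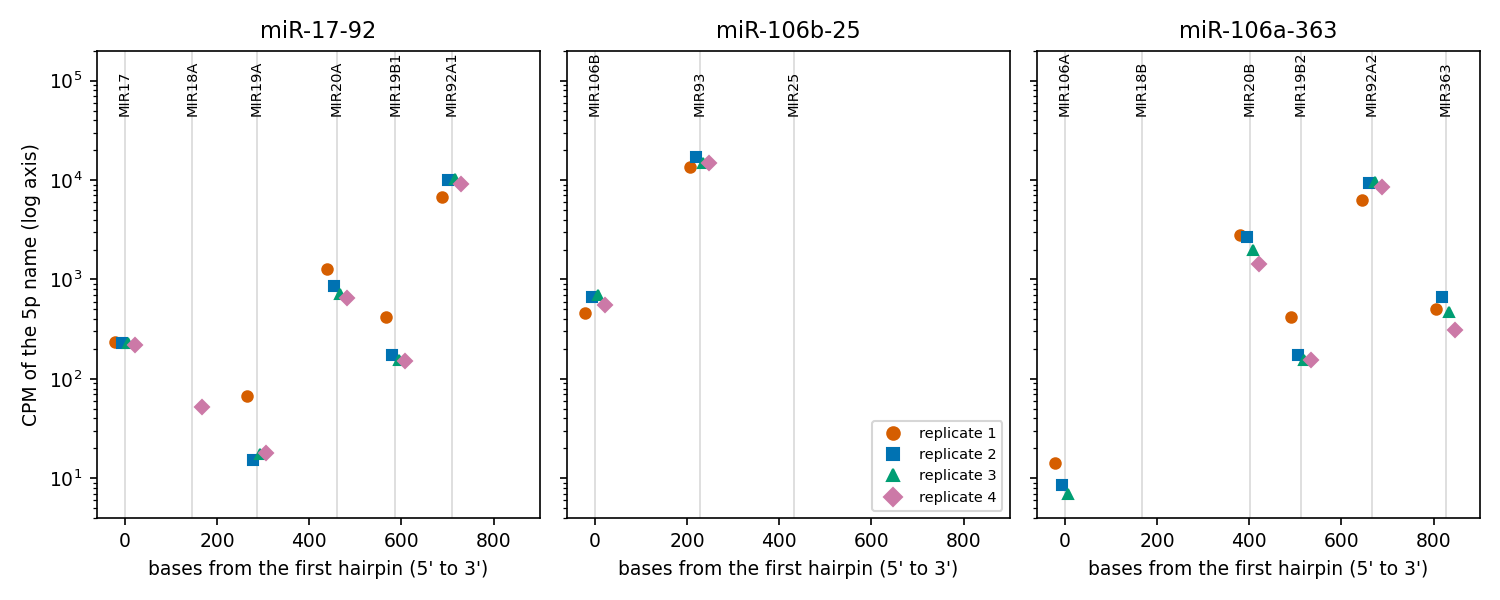
CPM of each name on a log axis against the distance of its hairpin from the first hairpin of the cluster, in bases, with 1 point per library set slightly sideways for each replicate; lines mark hairpin genes, and those without points are not analysed here. miR-92a-1-5p and miR-92a-2-5p are the highest in miR-17-92 and miR-106a-363, at 9064 and 8437 CPM on average, and miR-93-5p is the higher of the analysed names of miR-106b-25.

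The clusters were then compared with each other. miR-106b-25 held 1.41%, 1.79%, 1.57% and 1.55% of the counts in replicates 1 to 4, or 1.58% ± 0.158 (SD, n = 4), through miR-93-5p and miR-106b-5p alone. miR-17-92 held 0.879%, 1.13%, 1.14% and 1.02%, or 1.04% ± 0.123 (SD, n = 4). The ranges did not overlap, and miR-106b-25 was higher in 4 of 4 libraries, by 1.37 to 1.60 times. The direction depends on how miR-92a is counted. With miR-92a-2-5p added to miR-17-92 the mean log2 ratio of miR-17-92 to miR-106b-25 went from -0.60 to 0.25. With miR-92a-1-5p left out, a setting chosen after seeing the data, miR-17-92 held 0.138% ± 0.0427 (SD, n = 4). miR-106b-25 then had 7.02 times its counts in replicate 1 and 13.9 to 14.2 times in the others.

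Names with the same seed allow a comparison that does not involve miR-92a. miR-106b-5p and miR-93-5p together had 9.28, 16.3, 16.4 and 17.8 times the counts of miR-17-5p and miR-20a-5p together in replicates 1 to 4. Among single names, miR-20a-5p lay below miR-93-5p in each library, with a log2 ratio of -4.15 ± 0.50 (SD, n = 4, exact permutation p = 0.125). miR-17-5p likewise lay below miR-106b-5p in each library, with a log2 ratio of -1.36 ± 0.30 (SD, n = 4, exact permutation p = 0.125). The 6 names of the miR-17 seed family held 1.91% ± 0.175 (SD, n = 4) of all miRNA counts. Of the family's counts, miR-106b-25 gave 82.6% ± 4.49, miR-106a-363 gave 11.6% ± 3.06 and miR-17-92 gave 5.83% ± 1.62 (SD, n = 4 for each). miR-93-5p alone gave 74.0% to 84.1%.

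Of the other miR-25/92 family members, miR-92b and miR-32 are listed outside the clusters, miR-363-5p was given above, and miR-25 and miR-367 are not analysed here. miR-92b-5p had 6245, 10409, 8542 and 7763 counts, or 646.3 ± 123.0 CPM (SD, n = 4), and like miR-92a-1-5p was lowest in replicate 1. miR-32-5p had 352 counts in replicate 1 and blanks in the others. The values of the listed names, miR-363-5p included, lay below both miR-92a names in each library that had one. The named 5p strands of miR-92a-1 and miR-92a-2 lack the seed that miR-92a-3p shares with miR-25-3p. These values therefore rank names, not strands with one seed.

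The copies of a hairpin on chromosomes 13 and X were compared because they share mature strands. miR-92a-2-5p had 79205, 122131, 119221 and 108961 counts. The ratio of miR-92a-1-5p to miR-92a-2-5p was 1.07, 1.08, 1.07 and 1.07 in replicates 1 to 4, or 0.10 ± 0.01 on the log2 scale (SD, n = 4). The names thus moved together between libraries and differed by a small and steady amount. miR-19b-2-5p had 5285, 2278, 1936 and 1957 counts, and the ratio of miR-19b-1-5p to miR-19b-2-5p was 0.996, 0.999, 0.986 and 0.990.

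The hairpins are shown with the longest run of bases that both copies share in capitals. They are RefSeq sequences on GRCh38.p14, at chr13:91351314-91351391 (plus strand) for MIR92A1, chrX:134169538-134169612 (minus strand) for MIR92A2, chr13:91351192-91351278 (plus strand) for MIR19B1 and chrX:134169671-134169766 (minus strand) for MIR19B2.
MIR92A1: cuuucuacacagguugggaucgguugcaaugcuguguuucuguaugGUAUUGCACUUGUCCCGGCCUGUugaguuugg
MIR92A2: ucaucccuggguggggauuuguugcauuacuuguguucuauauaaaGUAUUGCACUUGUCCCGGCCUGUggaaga
MIR19B1: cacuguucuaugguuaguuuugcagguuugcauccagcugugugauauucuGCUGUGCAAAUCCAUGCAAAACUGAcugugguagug
MIR19B2: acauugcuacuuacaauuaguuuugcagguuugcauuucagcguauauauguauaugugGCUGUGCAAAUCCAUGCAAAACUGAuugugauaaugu

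The run is 23 bases long in the miR-92a hairpins and holds the whole of miR-92a-3p. In the miR-19b hairpins it is 25 bases long and holds the whole of miR-19b-3p. The 5p strands, which give the names of these entries, differ more. Those of miR-92a-1 and miR-92a-2 have equal bases at 16 of 22 positions compared from the 5′ end, with no shared run longer than 6 bases. Those of miR-19b-1 and miR-19b-2 have equal bases at 18 of 22 positions, all in 1 run of 18 bases from the 5′ end, so near-equal counts of this pair do not tell the arms apart. Over the whole table, matching by RefSeq name found 6 pairs of 5p names from hairpins that share a mature 3p strand. Pairs without a shared 3p name in that match were not counted. In these pairs the counts differed by at most 1.28-fold in any library where both had a value. The longest run shared by the 5p strands of a pair was between 6 and 22 bases, the latter in the miR-103a pair. By contrast, miR-20a-5p and miR-20b-5p, which differ by U1C and U10C, were unequal, with miR-20a-5p at 0.458, 0.323, 0.367 and 0.458 times miR-20b-5p. The arm behind the counts was not tested, and reads of a shared 3p strand cannot be assigned to chromosome 13 or X.

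**Figure D3:**
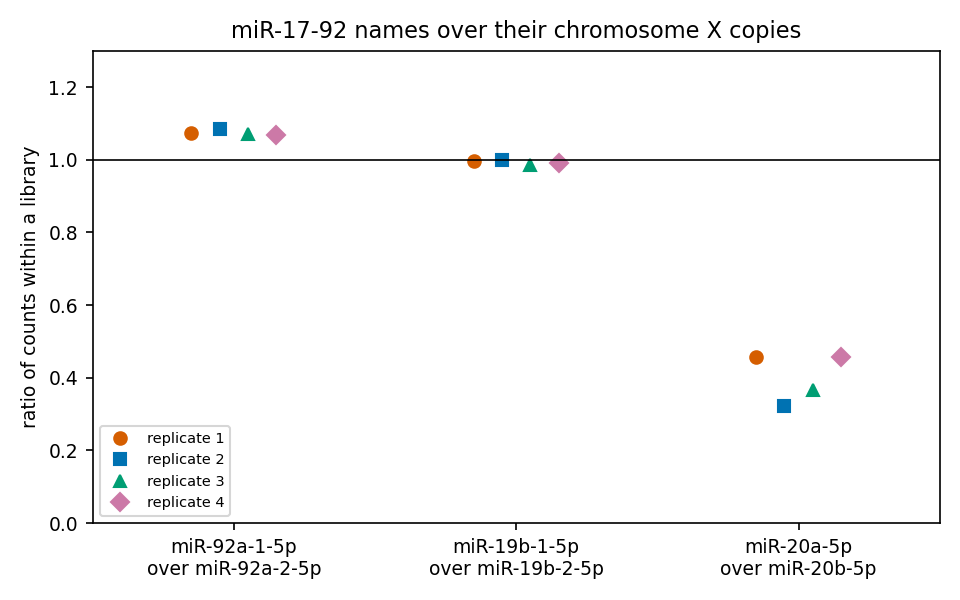
Ratio of the counts of a miR-17-92 name to those of its copy in miR-106a-363, on a linear axis from 0, with 1 point for each of the 4 libraries and a line at equal counts. The miR-92a points lie between 1.07 and 1.08 and the miR-19b points between 0.986 and 0.999, while the miR-20 points lie between 0.323 and 0.458.

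In replicate 1, names assigned to 1 transcript deviated in opposite directions. It was the highest library in CPM for 4 of the 8 members with at least 10 counts in every library and the lowest for the other 4, against 33.6% and 35.7% of the 280 names. With upper-quartile factors it was the highest for 3 members. Relative to the mean of the other libraries, the log2 ratio of replicate 1 was 1.98 for miR-19a-5p, 1.40 for miR-19b-1-5p and 0.78 for miR-20a-5p. It was 0.07 for miR-17-5p and -0.53 for miR-92a-1-5p, against a median of -0.07 over the 280 names. miR-19a-5p had the highest ratio of the 280 names and miR-19b-1-5p the 6th highest. In miR-106b-25 the log2 ratio was -0.48 for miR-106b-5p and -0.21 for miR-93-5p. The sign for miR-17-5p flipped to -0.14 when upper-quartile factors were taken from all names, a scaling that moved the median of the 280 names to -0.26.

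The make-up of miR-17-92 in replicate 1 also differed. miR-92a-1-5p had 101.1 times the counts of miR-19a-5p in replicate 1 and 508.7 to 651.8 times in the others. Its share of the cluster was 77.2% in replicate 1 and 88.6% to 90.2% in the others. By Dixon's ratio, the gap of an extreme library to its neighbour over the whole range, 2 of the 8 members had a library apart from the rest at the 95% level, against 11.1% of the 280 names. These were miR-19a-5p and miR-19b-1-5p, both with replicate 1 as the high library, which was so for 6.07% of the 280 names. The count depends on the scaling. The paper names upper-quartile scaling and does not say whether names were filtered first. With such factors from the 280 names, the count was 4 of 8 against 14.3% of the 280. With DESeq2 size factors it was 4 of 8 against 12.9%. Both added miR-92a-1-5p and miR-92a-2-5p on the low side of replicate 1. With TMM factors the count was 3 of 8, against 13.6%, with miR-92a-1-5p added. It was also 3 of 8 with upper-quartile factors from all names, against 8.21%, with miR-20a-5p added on the high side. These scalings were tried for this count after seeing the data.

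The GC content of the mature strands, averaged over the arms of a hairpin, moved with these ratios. Taken as the mean over the arms of a hairpin, it was 35.6% for miR-19a, 37.7% for miR-20a and 43.5% for miR-19b-1, the members with the highest ratios, and 48.9% for miR-17. It was between 52.3% and 55.6% for miR-92a-1, miR-92a-2, miR-106b and miR-93, which were lower in replicate 1. For the named 5p strand alone, GC content was lowest for miR-19a-5p (36.4%) and miR-20a-5p (39.1%). It was 42.9% for miR-106b-5p and the same, 47.8%, for miR-19b-1-5p and miR-17-5p. It was 50.0% to 52.2% for the miR-92a names and miR-93-5p. The order by GC content thus depends on the arm taken, and no correlation was computed for the named strands. The 8 members include copies of a shared strand and share the 4 libraries. Across them, with the mean over arms, Pearson's r was -0.902 and Spearman's rho -0.762. Across the 254 of 280 names that matched RefSeq, r was -0.482 and rho -0.473. The median log2 ratio of replicate 1 was 0.45 in the 64 names of lowest GC content and -0.33 in the 64 of highest. The part of GC content in the results was not tested.

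**Figure D4:**
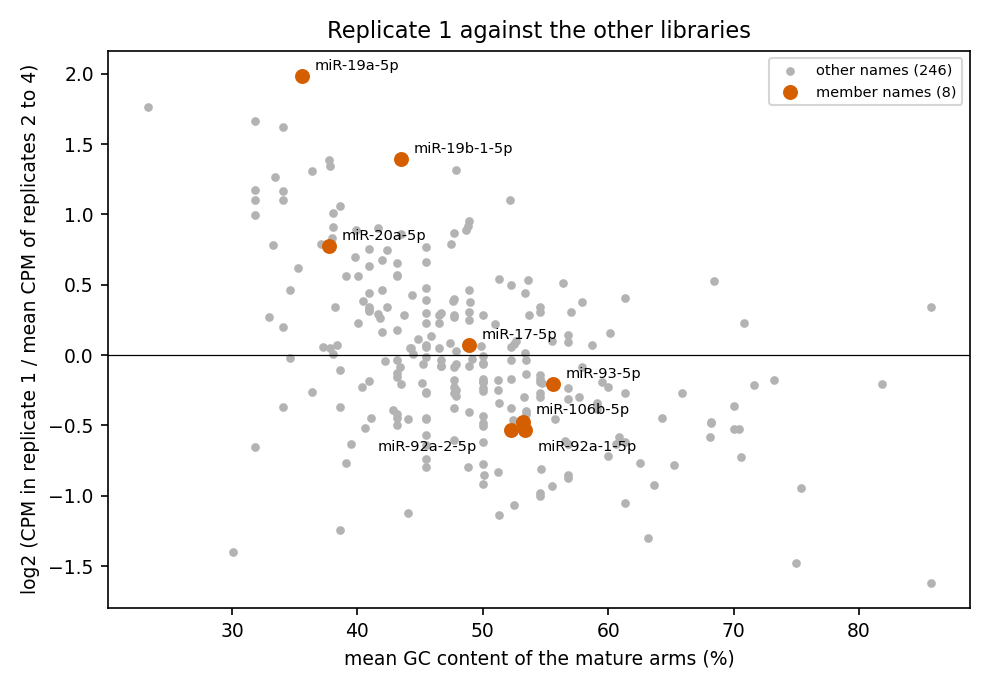
Log2 ratio of the CPM in replicate 1 to the mean CPM of the other libraries, against the mean GC content of the mature arms in percent, with 1 point per name. The 8 member names run from miR-19a-5p at 35.6% GC and 1.98 to the miR-92a names at 52.3% and 53.4% GC and -0.53.

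By the profile over the 4 libraries, as the root mean square difference of centred log2 CPM, the names most like the sum of miR-17-92 were miR-140-5p (0.016), miR-1296-5p (0.026) and miR-769-5p (0.035), against a median of 0.270 over 269 names. Those most like the sum of miR-106b-25 were miR-184 (0.021), miR-320a-5p (0.033) and miR-664a-5p (0.037), against a median of 0.267. miR-184 had 14 to 19 counts per library. With 4 libraries, such likeness is a description only.

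Among marker miRNAs, the 3 of glioma or astroglial cells (miR-21, miR-9 and miR-125b) summed to between 68195 and 113436 CPM. The neuronal list summed to between 1720 and 2611 CPM with 2 of 3 at a value and miR-124 without one. This sum was nearly all miR-128, since miR-128-1-5p had 2606 CPM in replicate 1 and miR-129-5p had 5.30 CPM. Erythroid markers (2 of 3 with a value, miR-451a without) reached at most 216.6 CPM, the liver marker miR-122 35.8 CPM, the 5 epithelial markers 34.0 CPM, muscle markers (2 of 3, miR-206 without) 3.91 CPM and white blood cell markers (2 of 3, miR-223 without) 2.90 CPM.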

How the data were processed

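miR-seq of 4 control libraries of U-251 cells was analysed. The authors obtained reads with bcl2fastq 2.20 and removed adaptors with Trimmomatic. Longer reads were dropped, and miRDeep2, with Bowtie as the aligner, was run against hg38. The labels also name Picard, and their protocol describes capture of polyadenylated mRNA where the paper names a miRNA kit. The deposited values are unnormalized and were handled as estimated counts, since 40 names hold values that are not whole. All values of the 9 members were whole. The miRNA annotation and the handling of molecular identifiers are not given in the sources used here.

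Blank cells were read as 0 counts. Log2 ratios within a library used counts plus 0.5. Python 3.11.15, numpy 2.4.6, pandas 2.3.3, scipy 1.17.1 and matplotlib 3.10.9 were used, and rounded counts gave scaling factors in R 4.3.3 (edgeR 4.0.16, DESeq2 1.42.0). Pairs were compared by two-sided exact permutation tests that flip the sign of the log2 ratio per library. A pair with one order in all 4 libraries has p = 0.125 in this permutation test whatever the spread between libraries. Pairs involving copies and miR-92a were added after seeing the data. Dixon's ratio and the log2 ratio of a library to the mean of the others were tested on simulated counts. The sign-flip permutation and the search for shared runs were tested on a small example each. Other steps were not tested in this way. Hairpin genes came from GENCODE release 44 and sequences from RefSeq, both on GRCh38.

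Text names cover every member, every analysed name of miR-106a-363, and the 3 names outside the clusters with the profile most like each cluster sum. Alternatives covered scaling, count minimum, denominator, pseudocount, copies, cluster definition and leaving out each replicate. Members and lists were chosen with earlier results of these data known.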

Additional observations from a re-analysis of the deposited data

Results flagged for a closer look

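Dixon's ratio was computed for 30 results over the 4 libraries, of which 7 passed the 95% critical value for 4 samples. Chance alone gives about 1 in 20, but in these data 11.1% of the 280 names had a library apart in CPM. Under the other scalings this was 8.21% to 14.3%. The results share libraries and names, so they are not independent. Replicate 1 was the high library for miR-19a-5p (0.9498), miR-19b-1-5p (0.924) and miR-19b-2-5p (0.929). The last pair comes from hairpins with a shared strand. Replicate 1 was also apart, on the low side, in the log2 ratios of miR-92a-1-5p to miR-19a-5p (0.867), to miR-19b-1-5p (0.902) and to miR-17-5p (0.857). These ratios were added after seeing the data and all contain miR-92a-1-5p, so they do not count as separate deviations of replicate 1. For miR-18a-5p the ratio was 1, which is fixed by the value in replicate 4 being the only one listed.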

How the results depend on the processing

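The log2 ratio of miR-17-92 to miR-106b-25, -0.60, reversed to 0.25 with miR-92a-2-5p counted in miR-17-92, by construction. It was -1.44 with the miR-92a and miR-19b names divided by their number of hairpin genes, and -3.56 without miR-92a-1-5p. The share of miR-17-92, 1.04%, became 0.580% and 0.138% under the same settings. The settings without miR-92a-1-5p, and the division for the share, were chosen after seeing the data. Scaling by TMM, upper-quartile or DESeq2 factors left both cluster shares within 1 SD, and all 36 member levels under 4 scalings moved by less than 1 SD. Such means over libraries can move little, because the factors raise some libraries and lower others. For miR-18a-5p the SD comes from 1 listed value and blanks. These outcomes therefore say little about robustness. The number of members with a library apart by Dixon's ratio, 2, became 4 with upper-quartile or DESeq2 factors and 3 with TMM factors or upper-quartile factors from all names. Leaving out 1 replicate gave -0.65 to -0.57 for the log2 ratio, 1.01% to 1.099% for the share of miR-17-92, 1.51% to 1.64% for that of miR-106b-25, and 6 or 7 neighbouring pairs with one order. Without replicate 1 the mean of miR-19a-5p fell from 29.5 to 16.99 CPM. None of 30 recomputed values of the 5 pair ratios changed direction. Leaving out a replicate could not change it, since each of these pairs had one order in 4 of 4 libraries. A pseudocount of 1 barely moved any of the ratios. The division by hairpin genes altered only that of miR-19a-5p to miR-19b-1-5p, from -3.08 to -2.08. The lack of reversals is therefore no support for the directions. The planned pairs with miR-25 were not run, and miR-17-5p to miR-18a-5p has no mean because of blanks. No paired analysis between conditions was possible because all libraries belong to 1 group. Depth limits mainly miR-19a-5p, with 203 counts at its lowest, and miR-18a-5p.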
